A study of Mus musculus with 2 samples.

Results

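The genes described here are 6 fatty acid binding proteins, Fabp1, Fabp2, Fabp3, Fabp4, Fabp5 and Fabp7, and Cd36, in fetal livers of a conditional Prox1 knockout and of wild-type mice. They were taken by name from the platform annotation, using every probe set that it assigns to one of these genes and to no other gene. All 7 genes had such probe sets, 15 in all, among 18193 genes that could be read in this way. Expression was measured on 1 Affymetrix array from livers of the genotype Prox1 f/f;Foxa3Cre, a conditional knockout in which Cre driven by Foxa3 recombines a floxed Prox1 gene, and on 1 array from wild-type livers. Both samples were total liver RNA of NMRI/C57Bl6 embryos at E14.5. The labels do not say whether the wild-type embryos carried a floxed allele or Cre, or how many embryos went into a sample. Neither genotype was replicated, so no value has an error and no test between genotypes was possible. Foxa3 is a gene of cells derived from endoderm, and whole fetal liver also contributes RNA of blood, vessel and mesenchymal cells. Every difference below is between these 2 RNA samples.

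Long-chain fatty acids are poorly soluble in water, and cells carry them on small cytosolic fatty acid binding proteins, each of which folds into a barrel around its ligand. The family members are named for the tissues where they were found: Fabp1 is the liver form, Fabp2 the intestinal, Fabp3 the heart, Fabp4 the adipocyte, Fabp5 the epidermal and Fabp7 the brain form. Cd36 is a cell-surface receptor of another protein family that helps fatty acids enter cells and also takes up oxidized lipoproteins. In hepatocytes Fabp1 is among the most abundant cytosolic proteins, binds fatty acids, acyl-CoA and bile acids, and is a target of the fatty acid sensing receptor PPAR alpha.

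Values are MAS5 signals, the brightness of a probe set after mismatch correction, scaled to a common trimmed mean. Signals up to 112.6, the higher of the arrays' medians, were treated as a floor. A gene was read from its brightest probe set and counted as measured if that probe set was above the floor on at least 1 array. Log2 differences are knockout minus wild type, and a gene at the floor on 1 array gives only a bound. Signals of different probe sets are not on one scale, so only the same probe set is compared between arrays. Of 11397 measured genes, 2.13% were lower in the knockout by 2-fold or more and 3.27% were higher by as much. Prox1 read 221.8 in the knockout and 340.3 in wild type on its brightest probe set. It was not given whether its probe sets lie in the deleted part, so the reading does not check the deletion. Xist was 365.7 in the knockout and 11466 in wild type, so the samples also differ in embryo sex, which cannot be told apart from genotype here.

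Among these genes Fabp1 stood out as lower in the knockout. Of 7 measured genes, 1 was lower by 2-fold or more, against 2.13% of all measured genes, and 0 were higher by 2-fold or more, against 3.27%. The remaining 6 were less than 2-fold apart or had a bound under 2-fold. The median log2 difference was -0.08, beside 0.03 for all measured genes. In all, 6 genes were below 0 and 1 was above 0, where 46.2% of all measured genes were below 0. All 10 of the probe sets that were above the floor on both arrays read lower in the knockout, where 49.0% of 17891 such probe sets of all genes did. These 10 belong to 6 genes, and the sizes ran from nearly equal signals for Fabp3, Fabp4 and Fabp5 to the large difference of Fabp1. The count leaves out 2 probe sets above the floor on only 1 array, 1416023_at of Fabp3 and 1450779_at of Fabp7. It also leaves out 3 probe sets of Fabp4 and Cd36 that were below the floor on both arrays. All of those left out read higher in the knockout, so the one-sided count depends on the floor.

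**Figure D1:**
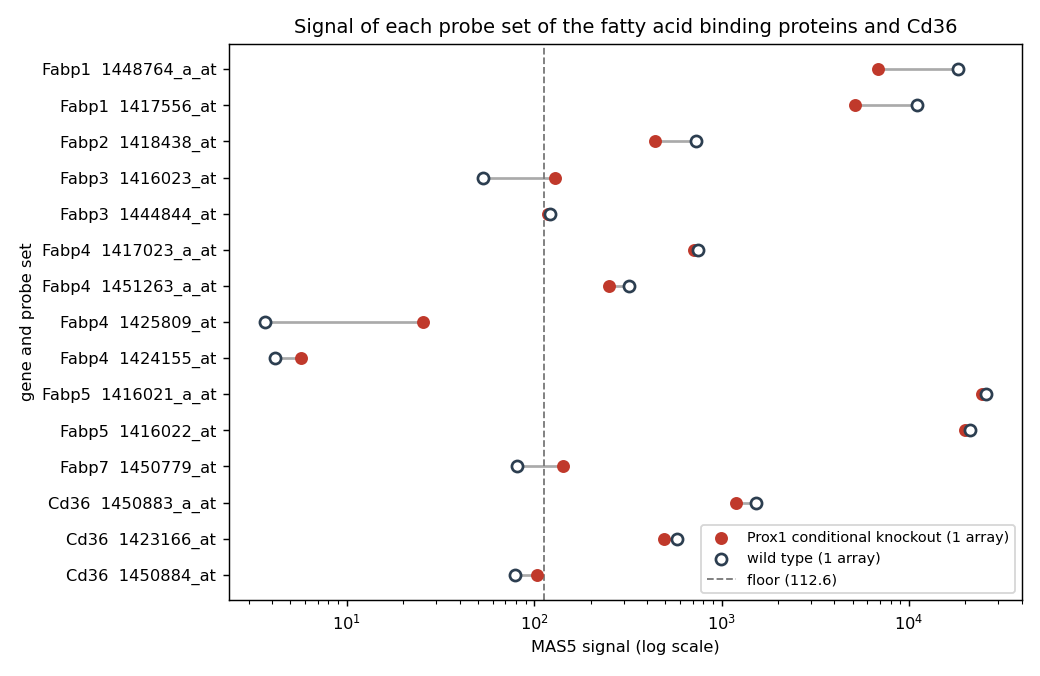
MAS5 signal (log axis) of the 15 probe sets of the 7 genes, with 1 filled point for the knockout array and 1 open point for the wild-type array, joined by a line; the dashed line is the floor of 112.6. The Fabp1 probe sets show the widest gaps among those above the floor, and the Fabp5 points nearly coincide.

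Fabp1 (gene identifier 14080) had 2 probe sets, both bright on both arrays. The brighter, 1448764_a_at, read 6859 in the knockout and 18352 in wild type. The other, 1417556_at, read 5166 in the knockout and 11092 in wild type. Both thus put Fabp1 more than 2-fold lower in the knockout, by 2.68-fold on the first and 2.15-fold on the second, or log2 differences of -1.42 and -1.10. The gap of 0.32 between these log2 differences is a little above what is usual for a pair of probe sets of 1 gene, whose median gap was 0.21 and whose 95th percentile was 0.73 over 4593 genes. Agreement of this kind was not general. Of 37 genes with at least a pair of probe sets measured on both arrays and a 2-fold lower value on the brightest, 20 were also 2-fold lower on the next brightest.

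Differences of this size were rare among bright genes. Fabp1 held place 93 from the lowest of 10221 genes measured on both arrays. Of 725 genes with a mean signal between 5000 and 20000, 1.10% had a log2 difference as low as that of Fabp1 or lower, and the middle 95% of them ran from -0.80 to 0.48. Of 301 genes with a mean signal of at least 10000, 4 were 2-fold lower in the knockout and 0 were 2-fold higher. Fabp1 was the second lowest of these 4, after Serpina1b, an antitrypsin gene of hepatocytes, at 6309 in the knockout and 17983 in wild type. The others were the fibrinogen chain gene Fga, at 7639 in the knockout and 16656 in wild type, and the embryonic globin Hbb-bh1, at 9144 in the knockout and 18806 in wild type. Serpina1b, Fga and Hbb-bh1 were also the 3 genes nearest to Fabp1 by the distance between their pairs of log2 signals, at 0.12, 0.21 and 0.42. That likeness rests on 2 arrays, and says nothing of shared control.

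**Figure D2:**
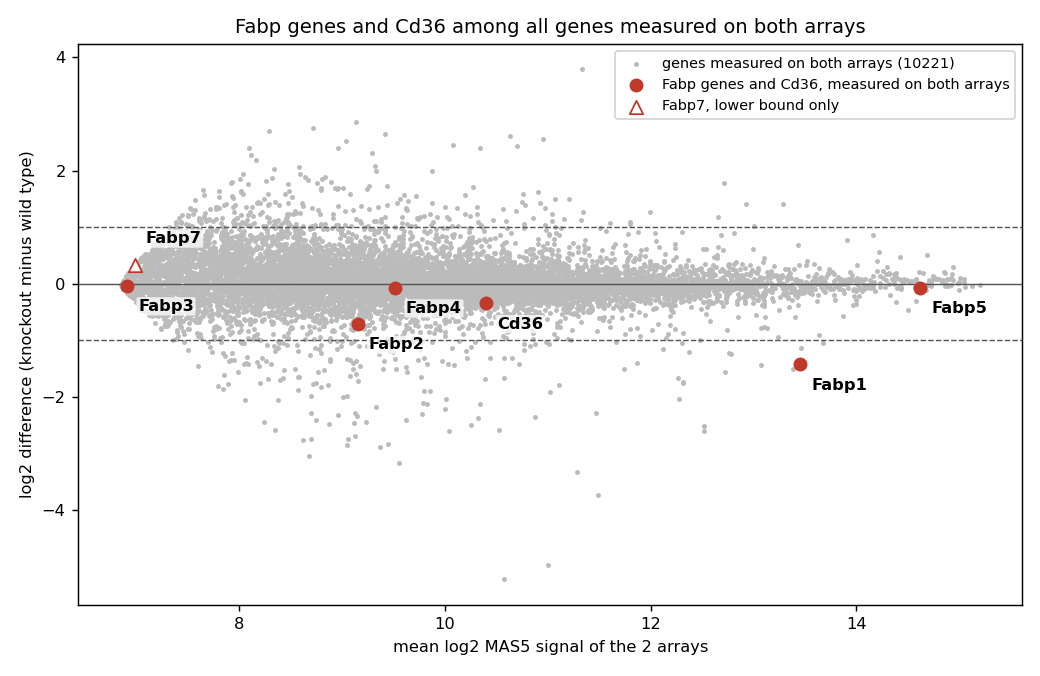
Log2 difference (knockout minus wild type) against mean log2 MAS5 signal for the 10221 genes measured on both arrays (grey) and the 7 genes described here (red; the open triangle is a lower bound); dashed lines mark 2-fold. Fabp1 at -1.42 lies far below the narrow band of genes of like signal, Fabp2 at -0.71 towards the lower edge of its band, and the others inside theirs.

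The promoter of Fabp1 is shown beside those of Fabp2 and Cd36, the genes with the next largest differences among those measured on both arrays. They are RefSeq sequences of GRCm38.p6, 250 bases upstream of the annotated start and 5′ to 3′ on the strand of the gene. The regions are chr6:71199629-71199878 on the plus strand for Fabp1, chr3:122894822-122895071 on the plus strand for Fabp2 and chr5:17835897-17836146 on the minus strand for Cd36. The Cd36 window lies inside the annotated span of that gene and stands for only 1 of its possible starts. Windows were available for 5 of the 7 genes, which leaves out Fabp4 and Fabp5. Capitals mark the best match to AGGTCANAGGTCA, the direct repeat that PPAR and its partner RXR bind and that Hnf4a binds in a related form, and, in Fabp1, also the best match to GTTAATNATTAAC, the site of the hepatocyte factor Hnf1.
Fabp1: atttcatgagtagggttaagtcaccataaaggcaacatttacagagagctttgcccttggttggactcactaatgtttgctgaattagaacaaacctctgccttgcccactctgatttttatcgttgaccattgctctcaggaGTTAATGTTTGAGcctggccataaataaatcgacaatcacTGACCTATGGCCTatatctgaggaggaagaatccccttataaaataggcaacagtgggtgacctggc
Fabp2: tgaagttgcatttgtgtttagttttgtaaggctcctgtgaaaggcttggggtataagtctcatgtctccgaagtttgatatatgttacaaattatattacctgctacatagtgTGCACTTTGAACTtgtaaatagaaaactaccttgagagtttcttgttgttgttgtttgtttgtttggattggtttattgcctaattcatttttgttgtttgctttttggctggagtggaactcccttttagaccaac
Cd36: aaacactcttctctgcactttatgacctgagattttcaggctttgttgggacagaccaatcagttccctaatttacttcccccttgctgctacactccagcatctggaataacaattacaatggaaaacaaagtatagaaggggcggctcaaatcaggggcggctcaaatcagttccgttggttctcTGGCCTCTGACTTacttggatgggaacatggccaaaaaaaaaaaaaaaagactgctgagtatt

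Both strands of each window were searched, and a motif was scored by its fewest mismatches. The Fabp1 promoter held the direct repeat with 1 mismatch, at positions -67 to -55 from the start, as TGACCTATGGCCT, which reads AGGCCATAGGTCA on the opposite strand. Of 32851 promoter windows of the same length, 0.484% held a match with as few mismatches. The best match in Cd36 had 2 mismatches, at -63 to -51, which 3.24% of windows equalled or bettered. The best in Fabp2 and in Fabp7 had 3 mismatches, which 21.3% of windows equalled or bettered, and the best in Fabp3 had 4, as good or better in 74.5%. The Hnf1 match in Fabp1 had 3 mismatches at -107 to -95 and overlapped no other capitals, and 7.58% of windows held one as good. Fabp7, which was not lower, held an equally good one at -72 to -60, and the best in Fabp2, Cd36 and Fabp3 had 4, 5 and 6 mismatches. Fabp1 also held an exact TATAAA at -30 to -25, present in 12.4% of windows, and the best match in each of the other 4 promoters had 1 mismatch, as good or better in 66.8%. These are matches of letters and were not tested as binding sites.

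Fabp2 (gene identifier 14079), the fatty acid carrier of enterocytes, was lower by less than 2-fold. Its only probe set, 1418438_at, read 444.0 in the knockout and 727.6 in wild type, 1.64-fold lower or -0.71 on the log2 scale. That places it among the lower values for its brightness. Of 4388 genes measured on both arrays with a mean signal between 250 and 1000, 4.38% were as low or lower. Their middle 95% ran from -1.01 to 1.12.

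Cd36 (gene identifier 12491) was slightly lower. Its brightest probe set, 1450883_a_at, read 1200 in the knockout and 1523 in wild type, and 1423166_at read 492.8 in the knockout and 581.2 in wild type. The log2 differences were -0.34 and -0.24, or 1.27-fold and 1.18-fold lower. The remaining probe set, 1450884_at, stayed under the floor with 103.9 in the knockout and 79.2 in wild type. Of 3392 genes measured on both arrays with a mean signal between 1000 and 5000, 9.40% were as low as Cd36 or lower. The Cd36 difference thus lay within the ordinary spread of such genes. In these bulk samples, fewer cells of a type and less RNA per cell cannot be told apart.

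Fabp5 (gene identifier 16592), the epidermal form, which many cell types express, was bright and read nearly the same on both arrays. The first, 1416021_a_at, read 24522 in the knockout and 25860 in wild type, and the second, 1416022_at, read 19827 in the knockout and 21243 in wild type. The log2 differences were -0.08 and -0.10. Signals this high can be compressed, which was not tested here, and of 92 genes above 20000 on at least 1 array 0 were 2-fold apart. Smaller differences did occur at such signals, as for the granulocyte gene S100a8, at 24664 in the knockout and 13628 in wild type.

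Fabp4 (gene identifier 11770), the form of adipocytes, macrophages and capillary endothelium, differed little. The probe set 1417023_a_at read 714.7 in the knockout and 749.1 in wild type, a log2 difference of -0.07. The probe set 1451263_a_at read 252.3 in the knockout and 321.3 in wild type, a log2 difference of -0.35. The other Fabp4 probe sets were far below the floor on both arrays, with 25.4 and 5.70 in the knockout and 3.67 and 4.16 in wild type, and give no difference.

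Fabp4 and Fabp5 lie in a run of related genes on chromosome 3. In the RefSeq gene table of GRCm38.p6 the protein-coding genes of that run follow in the order Fabp5, Pmp2, Fabp9, Fabp4 and Fabp12. Pmp2, the peripheral myelin form, read 5.80 in the knockout and 12.6 in wild type. Fabp9, the testis form, read 6.63 in the knockout and 8.03 in wild type, and Fabp12 read 78.2 in the knockout and 37.3 in wild type. All of these lay below the floor, so within this run only Fabp4 and Fabp5 were measured on either array.

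Fabp3 and Fabp7 were close to the floor. Fabp3 (gene identifier 14077), the form of heart and skeletal muscle, read 119.0 in the knockout and 121.5 in wild type on 1444844_at, a log2 difference of -0.03. Its other probe set, 1416023_at, read 128.8 in the knockout and 53.2 in wild type, which is below the floor, and so at least 1.14-fold higher. The direction for Fabp3 thus differed between its probe sets and was 0.08 as their median. Fabp7 (gene identifier 12140), the form of brain radial glia, read 142.3 in the knockout and 80.8 in wild type on its only probe set, 1450779_at, and was at least 1.26-fold higher in the knockout. The dimmest genes measured on both arrays, a set without Fabp7, also leaned higher. Those with a mean signal between the floor and 250 had a median log2 difference of 0.12 over 1633 genes.

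The other small lipid carriers of the same protein fold were hardly present. Of 10 listed, 8 were covered by probe sets of 1 gene and 1 was measured. This was Rbp2, the intestinal retinol carrier, at 108.4 in the knockout and 139.3 in wild type, at least 1.24-fold lower. Fabp6, Fabp9, Fabp12, Pmp2, Crabp1, Crabp2 and Rbp7 were below the floor on both arrays.

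Genes that bring fatty acids into the cell or join them to coenzyme A included 2 that were lower by more than 2-fold, as Fabp1 was. Of 20 listed genes 13 were measured, with 2 lower and 0 higher by 2-fold or more, against 2.13% and 3.27% of all measured genes. Among the 13, 10 were below 0 and 3 above 0, where 46.2% of all measured genes were below 0. The list median was -0.12, beside 0.03 for all measured genes. Slc27a2, a fatty acid transporter with very long-chain acyl-CoA synthetase activity, read 1183 in the knockout and 4098 in wild type and was 3.46-fold lower. Slc27a5, which also joins bile acids to coenzyme A, read 189.2 in the knockout and 471.1 in wild type and was 2.49-fold lower. Both were read from a single probe set.

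The rest of that list was less far apart. Acsl4, which activates polyunsaturated fatty acids, was highest at 2450 in the knockout and 1496 in wild type, a log2 difference of 0.71, with 0.58 and 0.57 on its other probe sets. Acsl6, a related synthetase, was at -0.38. Lpl, the lipase that frees fatty acids from lipoproteins, differed by 0.06 on its brightest probe set and by -0.62 on the other. Dbi, the acyl-CoA binding protein, ran from -0.54 to -0.04 over 4 probe sets. Scarb1 and Scarb2, the relatives of Cd36, were at -0.13 and -0.19. Acsl1 had no probe set of its own in the annotation and was not analysed here.

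Receptors that sense fatty acids lay in both directions. Of 14 listed PPAR, RXR and coactivator genes 11 were measured and 0 were 2-fold apart, with 8 above 0, 3 below 0 and a median of 0.22. Over all measured genes 53.8% were above 0 and the median was 0.03. Ppara, the receptor of the liver, read 417.5 in the knockout and 588.9 in wild type, a log2 difference of -0.50, and its other probe sets gave -0.95 and -0.20. Hnf4a, a hepatocyte regulator, was at -0.55 on its brightest probe set and at -0.85, -0.40 and -0.04 on its others. Ppard, the widely expressed receptor, was at 0.71 and the oxysterol receptor Nr1h3 at 0.61. Rxra was at 0.26 on its brightest probe set and at -0.17 on its other measured one. Pparg, the adipocyte receptor, was below the floor at 22.6 in the knockout and 22.9 in wild type.

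Known PPAR target genes outside the Fabp family and Cd36 were mostly below 0. Of 23 listed, 18 were measured, of which 13 were below 0 and 5 above 0, with a median of -0.33. The share below 0 over all measured genes was 46.2%. By 2-fold or more, 2 were lower and 1 was higher, against 2.13% and 3.27% of all measured genes. Acaa1b, a peroxisomal thiolase, read 69.0 in the knockout and 942.8 in wild type and was at least 8.37-fold lower. Ehhadh, a peroxisomal enzyme of fatty acid breakdown, read 332.8 in the knockout and 667.2 in wild type and was 2.0046-fold lower, at the edge of the rule.

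Targets also lay in the other direction. Vnn1, a pantetheine-cleaving enzyme, read 1354 in the knockout and 586.7 in wild type and was 2.31-fold higher, with 2.85-fold on its other probe set. Acot1, a cytosolic acyl-CoA thioesterase, was at 0.90. Cpt1a, which commits fatty acids to mitochondrial oxidation, was at 0.49 on its brightest probe set, at 0.03 on another and at a bound of 0.66 on the remaining one, which read 178.4 in the knockout and 92.1 in wild type. Plin2, the lipid droplet coat protein, read 5738 in the knockout and 7051 in wild type, a log2 difference of -0.30.

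Genes of triglyceride storage and lipoprotein export, a list that shares Plin2 with the target genes, lay in both directions. Of 22 listed genes 17 were measured, with 2 higher and 1 lower by 2-fold or more, against 3.27% and 2.13% of all measured genes. Among the 17, 8 were above 0 and 9 below 0, and the median was -0.08. Apoa4, an apolipoprotein of intestine and liver, read 1415 in the knockout and 58.8 in wild type, at least 12.6-fold higher, and its second probe set gave a bound of 2.54 on the log2 scale. Apoc3, which slows lipoprotein clearance, read 493.1 in the knockout and 110.5 in wild type, at least 4.38-fold higher. The lipase gene Pnpla3 read 233.7 in the knockout and 480.7 in wild type and was 2.06-fold lower. Apob, the structural protein of exported lipoproteins, read 2773 in the knockout and 5225 in wild type, a log2 difference of -0.91.

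**Figure D3:**
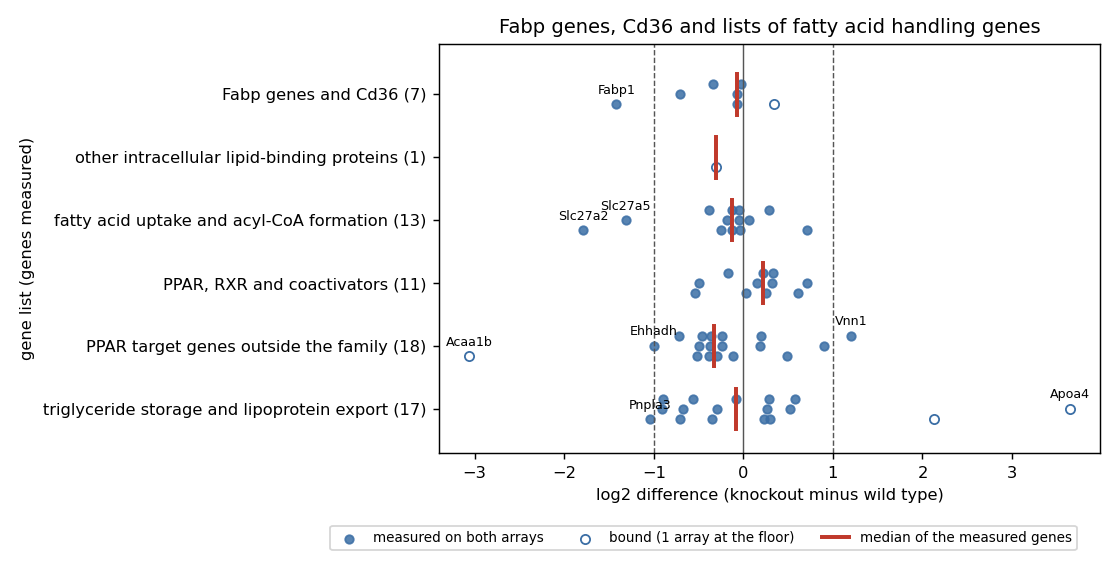
Log2 difference (knockout minus wild type) of each measured gene of the Fabp genes with Cd36 and of 5 lists of fatty acid handling genes; filled points were measured on both arrays, open points are bounds, red bars are medians and dashed lines mark 2-fold. Slc27a2 and Slc27a5 lie on the same side as Fabp1, and Apoa4 at 3.65 lies on the other.

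The markers of cell types that express these genes differed between the arrays. Among 12 markers of hepatocytes, the cells in which Fabp1 is made, 10 were measured, with a median of -0.45. By 2-fold or more, against 2.13% lower and 3.27% higher of all measured genes, 3 of these markers were lower (Ahsg, Apoh and Fgb) and 0 higher. Their signals, summed over all markers with a probe set for that gene alone, came to 160646 in the knockout and 206793 in wild type, and none of the 10 was below the floor. Such sums, here and below, mix probe sets of unlike scale and are carried by the brightest, here Alb, Afp and Ttr, so they can part from the median. The liver label therefore has its defining markers on both arrays. Alb at 0.03, Afp at -0.05 and Ttr at -0.05 were nearly equal, at signals above 20000 on both arrays. As for Fabp5, signals this high can be compressed, which was not tested, so these readings do not show equal hepatocyte RNA. The part of hepatocyte number in the Fabp1 difference was not tested.

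Several other genes of absorptive epithelium differed in the opposite direction from Fabp2. Of 20 gut epithelium markers 11 were measured, of which 7 were above 0 and 4 below 0. Of the 11, 6 were higher and 0 lower by 2-fold or more, against 3.27% and 2.13% of all measured genes. Among the 6, Cubn, Apoa4 and Vil1 were at the floor in wild type and were measured through the knockout array alone. Amn, also among the 6, read 319.0 in the knockout and 113.6 in wild type, just above the floor. The median of 1.20 depended on the floor: a floor at the 30th percentile gave 0.58, one at the 60th 0.74, and none 0.029. The summed signal was 9385 in the knockout and 2938 in wild type. Cubn, an endocytic receptor, at 3765 in the knockout and 60.3 in wild type, Apoa4, and the epithelial genes Tff3 and Muc13 were the highest, at log2 differences or bounds of 5.06, 3.65, 1.67 and 1.66. Krt20 at -0.59, Anpep at -0.31, and Rbp2 and Lgals4 with bounds of -0.31 and -0.23 were below 0, as Fabp2 was. The intestinal regulators Cdx1 and Cdx2 were below the floor on both arrays, as were Alpi, Cdh17, Guca2b, Lct, Mep1a and Slc5a1. Cholangiocyte markers, measured for 6 of 10, had 3 that were higher by 2-fold or more, 5 above 0 and 1 below 0. Their median of 0.73 rests largely on bounds, since 5 of the 6 (Krt7, Krt19, Sox9, Epcam and Cldn7) were at the floor in wild type, and moving the floor to the 30th or 60th percentile, or dropping it, gave 1.39, 1.21 and 1.46. They had a summed signal of 5303 in the knockout and 3657 in wild type.

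Markers of other cell types known to express Fabp4, Cd36 or both were mostly somewhat higher in the knockout. Over all measured genes 53.8% were above 0 and the median was 0.03. For endothelium, 14 of 14 were measured with 12 above 0, a median of 0.30 and summed signals of 7881 in the knockout and 6608 in wild type. For macrophages, 13 of 14 were measured with 10 above 0, a median of 0.25 and summed signals of 23602 in the knockout and 18698 in wild type. For megakaryocytes and platelets, 9 of 11 were measured with 9 above 0, a median of 0.35 and summed signals of 18988 in the knockout and 15508 in wild type. Their part in the Fabp4 and Cd36 readings was not tested.

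Adipocytes and muscle left little signal. Of 9 adipocyte markers 2 were measured, with a median of -0.34 and summed signals of 1253 in the knockout and 1275 in wild type, and Adipoq, Pparg, Lep, Cidec and Retn were below the floor on both arrays. Of 11 muscle and heart markers 2 were measured, Actc1 with a bound of -0.77 and Acta1 with a bound of 0.48. Their median of -0.15 joins bounds in opposite directions and measures no common shift. The summed signals of the muscle and heart markers were 482.9 in the knockout and 387.8 in wild type. Markers of neural crest and glia were measured for 4 of 10, with a median of 0.41 and summed signals of 2740 in the knockout and 1500 in wild type.

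Mesenchymal and granulocyte markers differed most among the blood and stromal cells. Of 14 stellate and mesenchymal markers 14 were measured and 9 were higher by 2-fold or more, against 3.27% of all measured genes. The median of these markers was 1.41, with summed signals of 25492 in the knockout and 11483 in wild type. Of 11 granulocyte markers 11 were measured and 6 were higher by 2-fold or more, against the same 3.27%. The granulocyte median was 1.02, with summed signals of 76583 in the knockout and 36649 in wild type. Erythroid markers, from the most abundant cells of the fetal liver, were measured for 8 of 12, with 0 that were 2-fold apart, a median of -0.05 and summed signals of 99702 in the knockout and 106019 in wild type. Of 5 sex-linked genes 4 were measured, with 3 Y-linked genes higher in the knockout and Xist lower.

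**Figure D4:**
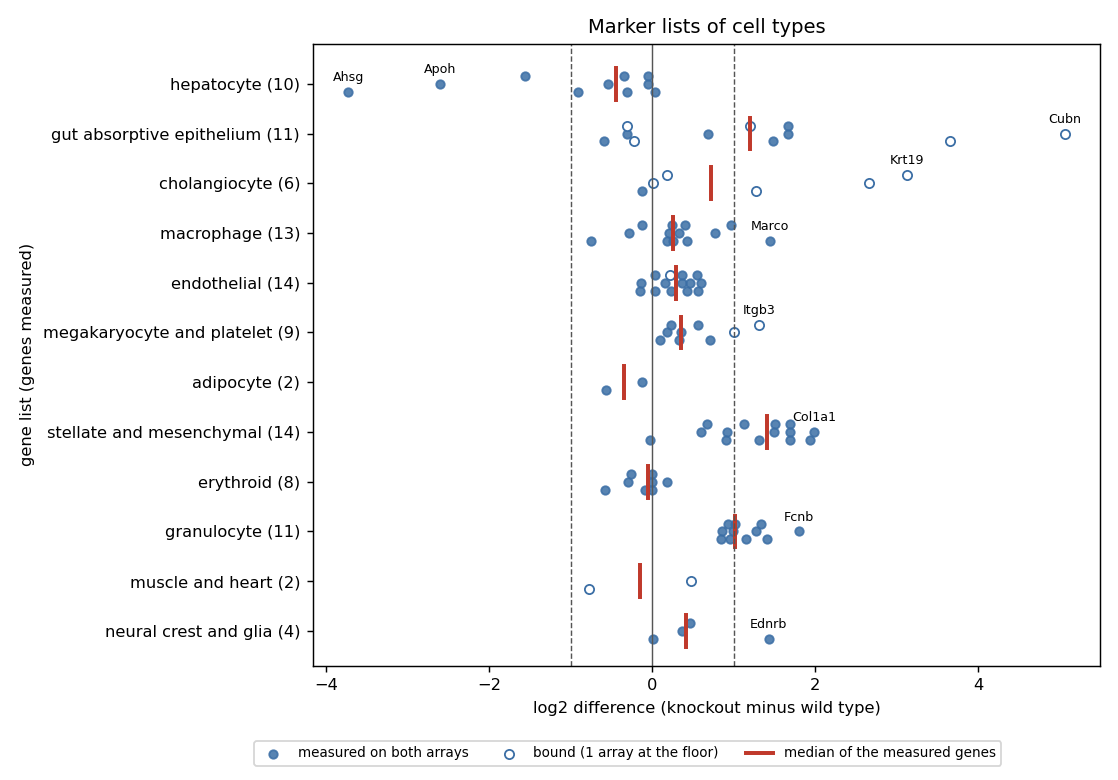
Log2 difference (knockout minus wild type) of each measured gene of 12 cell type marker lists; filled points were measured on both arrays, open points are bounds, red bars are medians and dashed lines mark 2-fold. Hepatocyte markers have a median of -0.45, while the stellate and mesenchymal median is 1.41.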

How the data were processed

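Liver RNA at E14.5 was measured on 2 single-colour arrays, 1 per genotype. The authors deposited intensity values on a linear scale. The submitters' processing notes name MAS5 without a version. The 2% trimmed mean was 500.0 on both arrays, so the values were used as deposited. No counts exist, and the number of arrays limits the precision.

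Control probe sets (64 of 45101) were left out. Gene names came from GEO's platform annotation: 34945 probe sets had 1 symbol, 932 several and 9160 none. Symbols were checked by gene identifier in a RefSeq table of GRCm38.p6, which updated 0. Values below the floor, the higher of the arrays' 50th percentiles, were raised to it before log2. No test was possible, so genes were counted at 2-fold. The genes described and the 18 lists were chosen with earlier results of these data known. Genes were named by rule: all family members, up to 4 of each list with the largest differences, a few chosen whatever their values, and the 3 genes nearest to a 2-fold member. For 9 alternatives the results were recomputed. A value counted as moved when it shifted by at least 0.29, the robust SD of log2 differences over genes measured on both arrays, and a count when it changed by more than 1.5 times. The counting was tested on simulated data. Software was matplotlib 3.10.9, statsmodels 0.14.6, scipy 1.17.1, pandas 2.3.3, numpy 2.4.6 and Python 3.11.15.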

Additional observations from a re-analysis of the deposited data

How the results depend on the processing

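The alternatives were floors at the 30th and 60th percentiles, no floor and no filter, the median over probe sets, no probe sets ending in _s_at or _x_at, quantile normalization, lowess correction, and size rules of 3-fold and 1.5-fold. Fabp1 ran from -1.43 to -1.26 over the settings that change values and was 2-fold lower in each. Fabp2 ran from -0.75 to -0.71, Cd36 from -0.34 to -0.29, Fabp4 from -0.21 to -0.07 and Fabp5 from -0.11 to -0.08. Fabp3 ran from -0.18 to 0.08. Fabp7 ran from 0.22 after lowess correction to 0.82, the value both at the 30th percentile and without a floor. Neither Fabp3 nor Fabp7 was measured at the 60th percentile. The median over the measured genes of the family ran from -0.34 to -0.08, and the -0.34 is that of the genes left at the 60th percentile. At 3-fold 0 of the 7 genes were lower, and at 1.5-fold 2 were (Fabp1 and Fabp2).

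Genes higher and lower in the knockout numbered 789 and 414 at the 30th percentile, 2362 and 1470 without floor or filter, 99 and 102 at 3-fold, and 1125 and 594 at 1.5-fold, against 373 and 243 as reported. They were 249 and 198 at the 60th percentile, 316 and 231 with the median over probe sets, 359 and 232 without the _s_at and _x_at probe sets, 335 and 266 after quantile normalization, and 305 and 271 after lowess correction. List medians moved by at least 0.29 only under another floor or none, which change both the genes counted as measured and the size of bounds. At the 30th percentile they were 0.34 for other lipid carriers, 0.58 for gut epithelium, 1.39 for cholangiocytes and 2.81 for sex-linked genes. At the 60th percentile they were 0.74 for gut epithelium, 1.21 for cholangiocytes and 0.70 for sex-linked genes. With no floor they were 0.024 for other lipid carriers, 0.029 for gut epithelium, 1.46 for cholangiocytes, -0.020 for adipocytes, 1.11 for muscle and heart, 0.96 for neural crest and glia and 4.49 for sex-linked genes. The sex-linked median (1.45 at the main floor) joins Y-linked genes and Xist, which lie in opposite directions, and measures no common shift. The median for triglyceride storage and export was 0.07 at the 60th percentile. No paired analysis was possible because each genotype has 1 array. Dim probe sets, such as those of Fabp3 and Fabp7, lie near background, and their low wild-type signals cannot show a 2-fold lower value. Without the floor, 1416023_at of Fabp3 was 2.42-fold higher in the knockout, with a wild-type signal below the floor.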
